A study of Mus musculus with 18 samples.

Results

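The genes of the collagen chains were followed in NIH 3T3 mouse fibroblasts. They were the rows of the expression table whose symbol is Col, a number, the letter a and a number, such as Col1a1. This gave 44 of the 22019 genes in the table. Of these, 41 were above the lowest value of the table in at least 3 libraries and were tested with the 16021 genes that met this condition. The others, Col9a1, Col13a1 and Col26a1, were at the lowest value of 1 in all libraries or in all but 1.

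A collagen molecule is a helical trimer of alpha chains, and each chain is the product of its own gene. Fibroblasts secrete chiefly fibrillar collagens, of which collagen I, built from the chains of Col1a1 and Col1a2, is the main component of connective tissue, while collagen IV forms the network of basement membranes and collagen VI forms beaded filaments around cells. Chains are hydroxylated and folded in the endoplasmic reticulum, secreted as procollagen, trimmed by proteases and crosslinked outside the cell.

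All cells carried a doxycycline-inducible TetON construct in stable lines made by retroviral transduction, and all received doxycycline at 1 μg/ml. KDEL cells expressed SS-GFP-KDEL, the control, and were enriched by sorting. SUN1L cells expressed SS-HA-Sun1L-KDEL, the lumenal domain of SUN1, which acts as a dominant negative on the LINC complex that links the nucleus to the cytoskeleton. Both were grown for 48 hr on fibronectin-coated polyacrylamide gels of 1 kPa (soft) or 308 kPa (stiff), with 3 libraries in each of these 4 groups. KDEL cells on 308 kPa also received 25 μM of the ROCK inhibitor Y27 (3 libraries) or 10 μM of the myosin II inhibitor blebbistatin (2 libraries). In an 18th library, number 34, the labels name an empty vector and disagree on the inhibitor, so that it entered none of the 6 groups. The question was how substrate rigidity, the LINC complex and myosin tension act on the levels of messenger RNA.

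Values are normalized signal on a linear scale, summed over each gene and not divided by its length, and the library totals lay between 29583296 and 34880352. They are given in the order of the library numbers, which run from 3 to 36 in the labels in 3 runs (3 to 12, 15 to 24 and 27 to 36). Sun1, part of which the SUN1L construct carries, had a signal of 38452 to 82617 in SUN1L libraries and of 2785 to 3799 in KDEL libraries. All 7 fibroblast markers were above 100 in every library, with Vim the highest, while the lists for endothelial, epithelial, immune and fat cells and osteoblasts had no such gene. Of 3 skeletal muscle markers Des was above 100 throughout and Myod1 at 1 throughout, and of 3 chondrocyte markers Sox9 was above 100 throughout. Libraries 3 (SUN1L, 1 kPa), 7 (SUN1L, 308 kPa) and 8 (KDEL, 308 kPa) stood apart, with Mki67, a marker of dividing cells, at 822 to 1320 against 8365 to 15960 in the other 14 libraries of the 6 groups, and Vim at 41866 to 49860 against 98524 to 144826. Their part in the collagen results was not tested, and many, but not all, of the fitted differences named below are also given without them.

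In KDEL cells without inhibitor, collagen I and the alpha 2 chain of collagen V led the family. Levels of different genes were compared as signal per kb of exon over the 6 KDEL libraries of both rigidities. Col1a2 (chr6:4504814-4541543, GRCm38, plus strand) stood first with 23252 ± 3327 (SD, n = 6), and Col1a1 (chr11:94936224-94953042, plus strand) second with 11575 ± 3499. The ranges of these 2 genes did not overlap, and the mean of Col1a2 was 2.01-fold that of Col1a1. Col5a2 (chr1:45374321-45503282, minus strand), a chain that regulates the diameter of collagen fibrils, came next with 7229 ± 1470. It was below Col1a1 in each of the 6 libraries, although the ranges overlapped. The first 3 genes held 71.1% of the summed collagen signal per kb and the collagen I genes 58.9%.

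Promoter windows of 300 bases, from 250 before to 50 after the start site, were taken from RefSeq (GRCm38.p6) for 35 of the 44 genes. They are shown for Col1a2, which had the highest level, and for Col11a1, whose log2 differences under both inhibitors were among the largest. Capitals mark every match to CCAAT or GGGCGG on either strand (ATTGG and CCGCCC on the printed strand are matches on the other one).
Col1a2, chr6:4505368-4505667, plus strand: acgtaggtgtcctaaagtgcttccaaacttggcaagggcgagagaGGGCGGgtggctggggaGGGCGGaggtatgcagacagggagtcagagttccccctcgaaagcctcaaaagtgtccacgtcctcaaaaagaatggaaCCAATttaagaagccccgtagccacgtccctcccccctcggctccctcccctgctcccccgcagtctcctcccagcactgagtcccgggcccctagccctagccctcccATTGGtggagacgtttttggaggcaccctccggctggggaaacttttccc
Col11a1, chr3:114030290-114030589, plus strand: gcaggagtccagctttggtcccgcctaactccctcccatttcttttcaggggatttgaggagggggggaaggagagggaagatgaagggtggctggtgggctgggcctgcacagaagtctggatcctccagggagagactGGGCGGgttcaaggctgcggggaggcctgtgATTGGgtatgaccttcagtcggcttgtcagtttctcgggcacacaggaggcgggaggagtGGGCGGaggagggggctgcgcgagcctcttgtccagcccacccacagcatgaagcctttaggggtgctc
The window of Col1a2 held 2 matches to CCAAT and 2 to GGGCGG, and that of Col11a1 held 1 and 2. CCAAT was found in 13 of the 38 collagen windows (34.2%) and in 37.4% of all 32851 windows of the table. GGGCGG was found in 23 collagen windows (60.5%) against 35.7% of all windows, and TATAAA in 5 (13.2%) against 13.6%. The median GC content was 59.8% in the collagen windows and 52.7% in all windows, and GGGCGG consists of G and C alone. The window of Col1a2 lies wholly inside the gene span given above, which begins at 4504814, so that its matches are not upstream of that span. These matches describe the letters only.

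Below the first 3 genes came Col6a1, a chain of the beaded filament collagen VI, at 3595 ± 1025. Its range did not overlap that of Col5a2, and it was above the next gene in all 6 libraries, although those ranges overlapped. Col16a1 (1789 ± 490), a FACIT collagen that associates with fibrils, Col6a2 (1704 ± 516), Col5a1 (1663 ± 566), Col6a3 (1448 ± 578), Col3a1 (1285 ± 382), Col4a1 (1139 ± 282) and Col4a2 (1042 ± 279) followed, and each of these overlapped its neighbour in rank. Col4a5 (987 ± 225), Col8a1 (714 ± 185) and Col4a6 (609 ± 194) came next. The 10 highest genes stayed the same 10 when any of the 6 libraries was left out, when the longest transcript was used as length and when signal was not divided by length. The order of the first 4 was also kept when a library was left out.

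**Figure D1:**
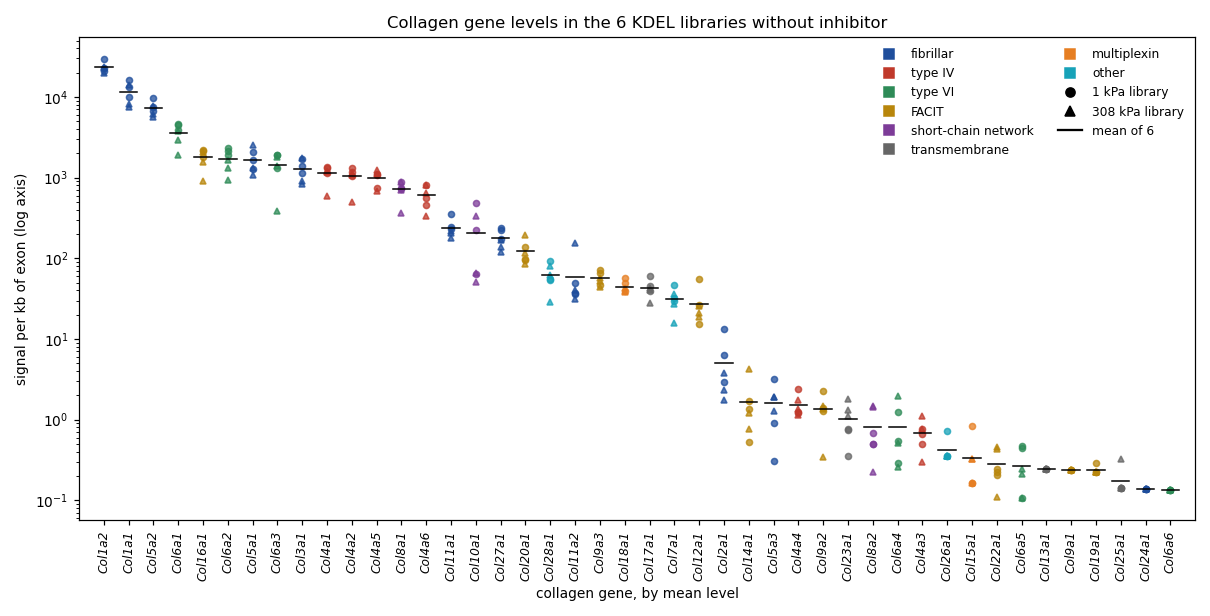
Signal per kb of exon (log axis) of the 44 collagen genes in the 6 KDEL libraries without inhibitor, ordered by mean, with circles for 1 kPa, triangles for 308 kPa, a bar for the mean and colours for the class. Col1a2 stands above all others, and a 5.3-fold step separates Col12a1 at rank 25 from Col2a1 at rank 26.

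A step of 5.3-fold lay between rank 25, Col12a1 (26.9 ± 14.4 per kb), and rank 26, Col2a1 (5.08 ± 4.38 per kb), the main collagen of cartilage. In all, 25 genes had a mean level above 20 per kb, 18 above 100 and 11 above 1000. Of the 44 genes, 18 never reached a signal of 60 in any of the 18 libraries, and 4 were at the lowest value of 1 in all 6 KDEL libraries. Among these 4 the order per kb reflects length alone. By class, the 11 fibrillar genes held 76.8% of the summed level per kb in KDEL cells, the 6 genes of collagen VI 11.4%, the 6 of collagen IV 6.46%, the 9 FACIT genes 3.41% and the short-chain network genes (Col8a1, Col8a2, Col10a1) 1.57%. The transmembrane, multiplexin and remaining classes each held 0.162% or less. Within the fibrillar class, Col5a3 was at rank 28 (1.6 per kb) and Col24a1, at the lowest value in all KDEL libraries, at rank 43.

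Several collagen genes lie beside each other in the genome. Col4a1 and Col4a2 on chromosome 8, whose chains join in 1 trimer, are transcribed away from each other and overlap by 22 bases at their starts. Col4a4 and Col4a3 on chromosome 1 are likewise head to head at a distance of 71 bases, and Col4a6 and Col4a5 on the X chromosome at 1308 bases. Since counting by strand is not stated in the sources used here, reads from the overlap cannot be given to 1 gene of a pair. The windows of Col4a1 and Col4a2 are shown because they share 78 bases, in capitals, which read as the reverse complement of each other.
Col4a1, chr8:11312777-11313076, minus strand: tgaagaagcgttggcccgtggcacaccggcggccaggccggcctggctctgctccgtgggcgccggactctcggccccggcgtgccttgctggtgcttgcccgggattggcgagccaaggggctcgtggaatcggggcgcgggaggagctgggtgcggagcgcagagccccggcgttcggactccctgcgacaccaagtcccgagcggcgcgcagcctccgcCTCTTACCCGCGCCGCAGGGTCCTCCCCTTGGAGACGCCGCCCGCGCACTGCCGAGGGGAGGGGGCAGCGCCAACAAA
Col4a2, chr8:11312555-11312854, plus strand: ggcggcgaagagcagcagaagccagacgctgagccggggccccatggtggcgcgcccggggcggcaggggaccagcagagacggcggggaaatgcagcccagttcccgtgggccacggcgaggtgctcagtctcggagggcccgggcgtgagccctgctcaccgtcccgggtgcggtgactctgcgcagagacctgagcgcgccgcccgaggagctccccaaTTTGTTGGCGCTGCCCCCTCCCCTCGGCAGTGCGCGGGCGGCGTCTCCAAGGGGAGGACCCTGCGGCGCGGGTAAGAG

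The ratios between chains of 1 collagen varied to different degrees. The signal of Col4a1 was 8725, 7594 and 9064 in KDEL cells on 1 kPa, 3893, 8062 and 7883 on 308 kPa, 4218, 6845 and 7045 in SUN1L cells on 1 kPa and 3649, 5866 and 5514 on 308 kPa. With Y27 it was 7391, 7813 and 8251, and with blebbistatin 7905 and 7068. Libraries 3, 7 and 8 were the lowest of all for this gene. Although Col4a1 ranged from 3649 to 9064, its ratio to Col4a2 per kb lay between 0.977 and 1.19 in all 18 libraries. The ratio of Col6a1 to Col6a2, neighbours on the same strand of chromosome 10, lay between 2.01 and 2.37. Wider ranges were found for Col4a5 to Col4a6, which are also head to head (1.24 to 2.16), and for Col6a3 to Col6a1 (0.202 to 0.642), with the lowest value in library 8. The ratio of Col1a2 to Col1a1 per kb, genes on different chromosomes, ran from 1.68 to 3.42. It was 1.68 to 1.86 in the libraries numbered 27 to 36, library 34 included, and 1.80 to 3.42 in those numbered 3 to 12.

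**Figure D2:**
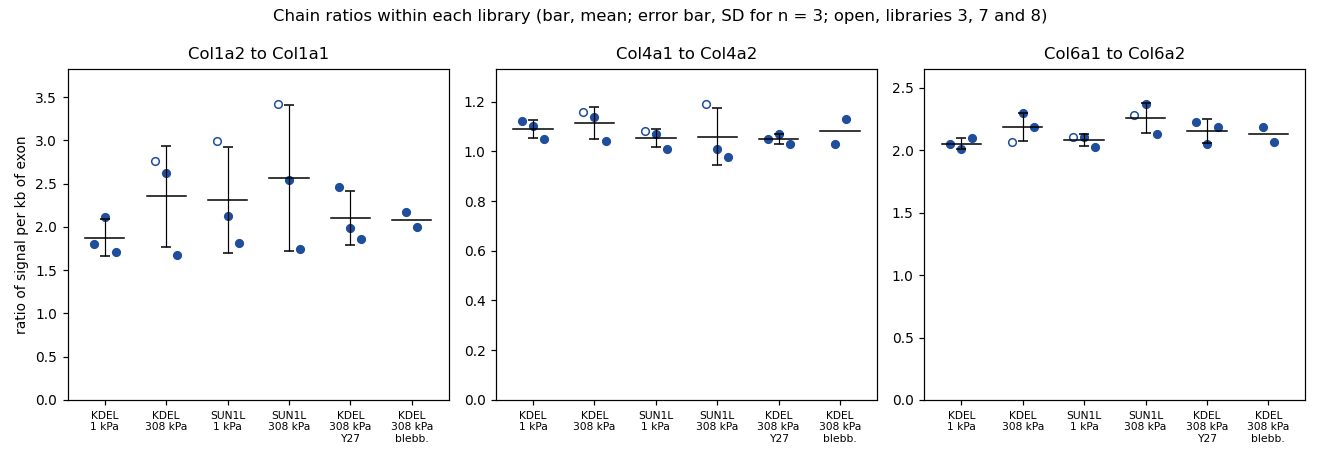
Ratio of signal per kb of exon between the paired chains in each library of the 6 groups, with the mean as a bar, the SD for groups of 3 as error bar and open circles for libraries 3, 7 and 8. Col4a1 to Col4a2 and Col6a1 to Col6a2 stay within 0.977 to 1.19 and 2.01 to 2.37, whereas Col1a2 to Col1a1 runs from 1.68 to 3.42.

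None of the 3 ratios of Col1a1 to Col1a2, Col4a1 to Col4a2 and Col6a1 to Col6a2 was shown to differ between SUN1L and KDEL cells. Over both rigidities, SUN1L minus KDEL was −0.19 (log2) for Col1a1 to Col1a2, −0.06 for Col4a1 to Col4a2 and 0.03 for Col6a1 to Col6a2. In an exact two-sided permutation test with labels exchanged within each rigidity (400 permutations, smallest possible p 0.005), p was 0.34, 0.225 and 0.305, and 0.34 for each after adjustment over the 3 ratios. That test ignores the run of library numbers. With labels exchanged within rigidity and run (64 permutations, smallest possible p 0.0312), p was 0.0938, 0.0625 and 0.281. After adjustment these were 0.141, 0.141 and 0.281. Without libraries 3, 7 and 8 the differences were −0.04, −0.10 and 0.01. In the permutation within rigidity p was then 0.683, 0.05 and 0.817 (smallest possible 0.0333), and 0.817, 0.15 and 0.817 after adjustment.

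Summed over the 44 genes, collagen held about 1% of all signal. In KDEL cells on 1 kPa the share was 1.17% ± 0.127 (SD, n = 3), and on 308 kPa 0.979% ± 0.0483 (n = 3). It amounted to 1.01% ± 0.0892 (n = 3) in SUN1L cells on 1 kPa and 0.863% ± 0.0792 (n = 3) on 308 kPa. With Y27 it was 1.44% to 1.62% (mean 1.53% ± 0.0902, n = 3), and the 3 libraries lay above all 3 untreated KDEL libraries on 308 kPa (0.934% to 1.03%). With blebbistatin it was 1.45% and 1.17% (n = 2), also above the untreated libraries. Without libraries 3, 7 and 8 the means of the untreated KDEL cells on 308 kPa and of the SUN1L cells were 0.982%, 1.01% on 1 kPa and 0.881% on 308 kPa. These shares were not tested.

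**Figure D3:**
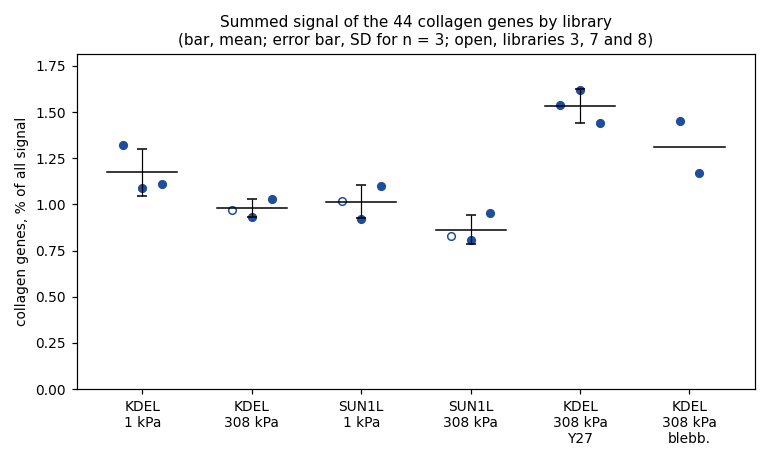
Share of all signal (percent) held by the 44 collagen genes in each library of the 6 groups, with the mean as a bar, the SD for groups of 3 as error bar and open circles for libraries 3, 7 and 8. The Y27 libraries lie at 1.44% to 1.62%, above all untreated libraries.

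Over the 6 groups at once, no collagen gene passed the moderated F test of limma (17 libraries) at an adjusted p of 0.05, while 29 genes did among all tested (0.181%). At an unadjusted p under 0.05, 9 of 41 collagen genes were found, against 7.7% of all genes. These were Col5a2 (adjusted p = 0.14), Col2a1 (adjusted p = 0.194), Col6a2 (adjusted p = 0.308), Col1a2 (adjusted p = 0.363), Col6a1, Col11a1, Col27a1, Col1a1 and Col8a1 (adjusted p = 0.622). With the run of library numbers as a block, which the labels do not name as a batch, Col4a5 (adjusted p = 0.0262), Col6a2 (adjusted p = 0.0461) and Col1a2 (adjusted p = 0.0464) passed, with 1.43% of all genes. Col4a5 was 7238, 6950 and 4807 in KDEL and 6456, 6146 and 4567 in SUN1L cells on 1 kPa. On 308 kPa it was 8024, 7270 and 4417 and 6082, 5624 and 3452. With Y27 it was 9774, 7949 and 6612 and with blebbistatin 10223 and 7454. Within each run it was lower in SUN1L cells on both gels and higher with either inhibitor, although the groups overlapped. The 9 genes counted without the block comprised 6 fibrillar genes, 2 chains of collagen VI and Col8a1 of the short-chain network. Without libraries 3, 7 and 8, 11 collagen genes were below 0.05 and none passed after adjustment. The share of all genes in that fit is not given. The plot of signal by library gives the values of 12 genes.

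**Figure D4:**
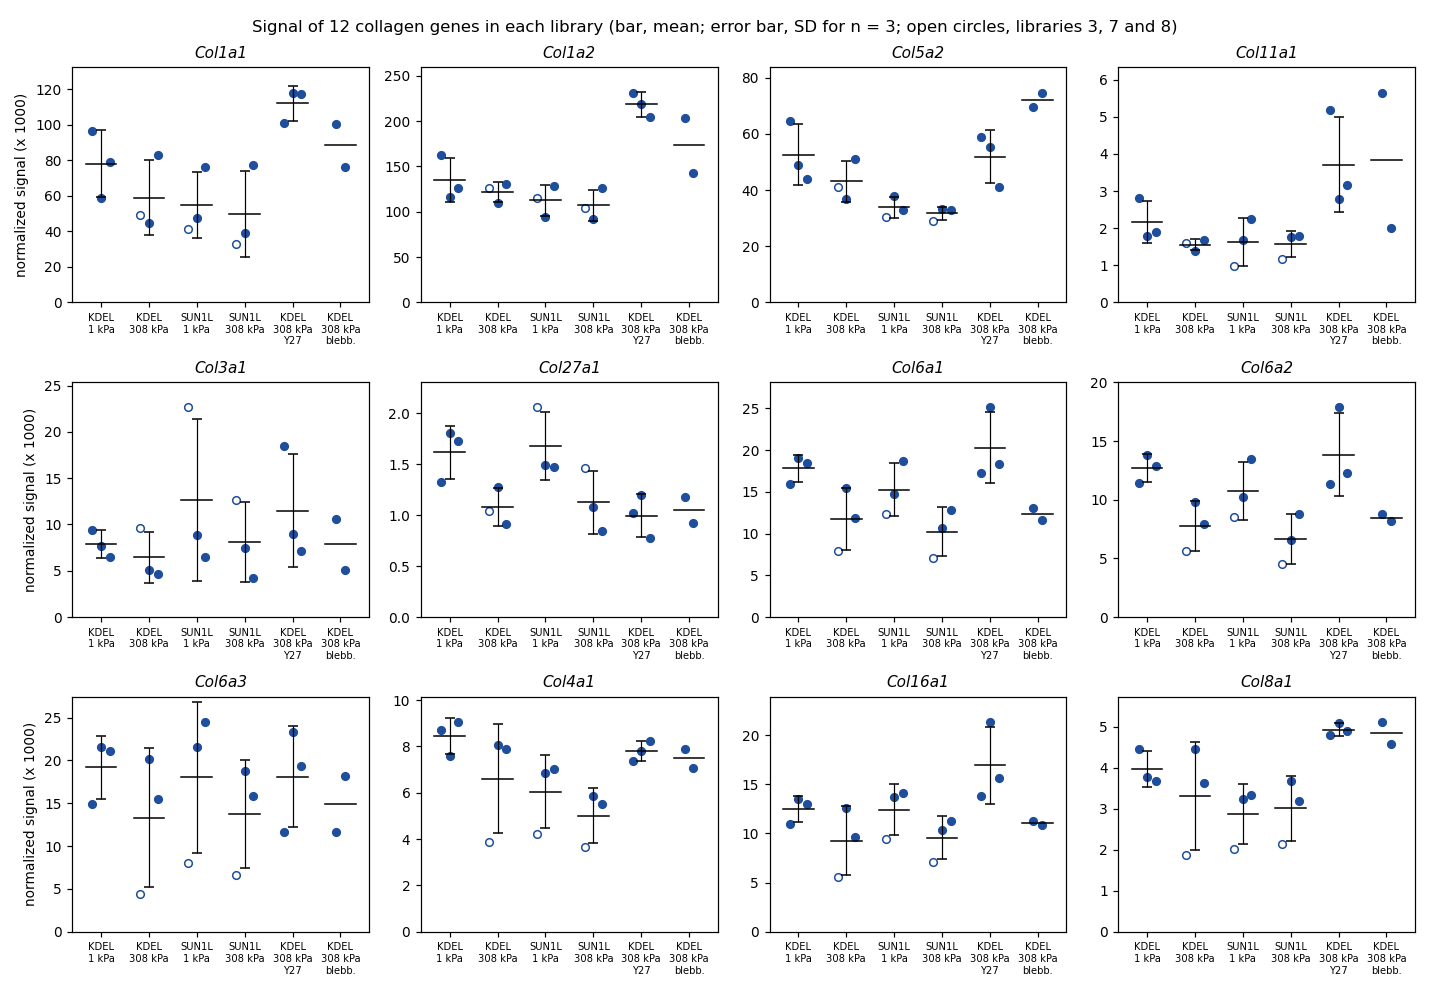
Normalized signal divided by 1000 (linear axes from 0) of 12 collagen genes in each library of the 6 groups, with the mean as a bar, the SD for groups of 3 as error bar and open circles for libraries 3, 7 and 8. Col1a1 and Col1a2 are highest with Y27, Col5a2 with blebbistatin, and Col6a3 and Col4a1 are lowest in the open circles.

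The comparison of SUN1L with KDEL cells asked whether collagen levels depend on the LINC complex. No collagen gene was called, that is, had an adjusted p under 0.05 in limma and at least a 2-fold difference. This holds for 1 kPa (14 genes called in all, 0.0874%), for 308 kPa (10 genes, 0.0624%) and over both rigidities (29 genes, 0.181%). At an unadjusted p under 0.05, 3 collagen genes were found on 1 kPa (background 4.54%), 2 of them higher (2.75%) and 1 lower (1.79%). There were 2 on 308 kPa (2.53%), both higher (1.36%, against 1.17% lower). Over both rigidities there were 7 (6.8%), of which 5 were higher (3.77%) and 2 lower (3.03%). The median log2 difference of the 41 genes was 0.05 on 1 kPa and 0.10 on 308 kPa, beside −0.01 and −0.03 over all genes tested.

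Among the abundant chains, Col5a2 had the largest difference toward lower levels in SUN1L cells. Its signal was 64746, 49119 and 43932 in KDEL and 30413, 38054 and 33048 in SUN1L cells on 1 kPa, and 41291, 37008 and 51245 in KDEL and 29028, 33263 and 33010 in SUN1L cells on 308 kPa. All SUN1L libraries were below all KDEL libraries on the same gel. The log2 difference over both rigidities was −0.53 ± 0.14 (SE), with an adjusted p = 0.385, and it was −0.62 ± 0.20 on 1 kPa and −0.43 ± 0.20 on 308 kPa. Within each run of library numbers SUN1L was lower as well, by −1.09, −0.37 and −0.41 on 1 kPa and −0.51, −0.15 and −0.63 on 308 kPa. Without libraries 3, 7 and 8 the difference over both rigidities was −0.47 (adjusted p = 0.537). On 1 kPa, 3 collagen genes were below KDEL without overlap (Col4a1, Col5a2 and Col8a1, background 7.86%) and 3 were above (Col11a2, Col20a1 and Col4a3, 6.65%). On 308 kPa, 2 were below (Col18a1 and Col5a2, 2.33%) and 3 above (Col5a3, Col9a2 and Col9a3, 1.95%). Within every run of library numbers 7 were higher and 7 lower on 1 kPa (16.2% and 21%), and 6 and 7 on 308 kPa (10% and 16%).

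Of the genes with higher mean signal in SUN1L cells, Col20a1, a FACIT collagen, had the largest difference among those with a signal above the median of all tested genes. That median was a mean signal of 590. Col20a1 averaged 1078 on 1 kPa and 917 on 308 kPa in SUN1L cells. Its mean was 509 in the 6 KDEL libraries without inhibitor, 587 with Y27 and 543 with blebbistatin. It thus passed this cut only through the SUN1L libraries, and its place in this order rests on the difference itself. On 1 kPa it was 416, 583 and 399 in KDEL and 1727, 809 and 696 in SUN1L cells, and on 308 kPa 821, 482 and 353 and 1660, 541 and 552. With Y27 it was 641, 707 and 414, and with blebbistatin 596 and 490. The groups did not overlap on 1 kPa and did on 308 kPa, and the highest SUN1L value on either gel was in library 3 or 7. The log2 difference over both rigidities was 0.86 ± 0.34 (adjusted p = 0.67), and 0.56 without libraries 3, 7 and 8 (adjusted p = 0.428). On 1 kPa it was 1.11 ± 0.49, and 0.71 without library 3. Col3a1, the fibrillar chain of collagen III, came next, with 9438, 7692 and 6454 in KDEL and 22663, 8836 and 6435 in SUN1L cells on 1 kPa, and 9654, 5067 and 4695 and 12671, 7443 and 4201 on 308 kPa. With Y27 it was 18434, 8967 and 7109 and with blebbistatin 10645 and 5055. The groups overlapped on both gels, and the difference over both rigidities was 0.37 ± 0.35 (adjusted p = 0.903), and 0.08 without libraries 3, 7 and 8.

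The remaining genes with an unadjusted p under 0.05 over both rigidities had low signal. Col5a3, a fibrillar chain, was 5.63, 19.6 and 1.89 in KDEL and 59.8, 23.8 and 11.7 in SUN1L cells on 1 kPa, and 11.8, 7.87 and 11.8 and 49.2, 40.9 and 13.3 on 308 kPa, and 10.4, 40 and 21.3 with Y27 and 15.8 and 4.91 with blebbistatin. Its log2 difference of 1.66 ± 0.54 (adjusted p = 0.559) was the largest of the 7, and it was 1.24 (adjusted p = 0.748) without libraries 3, 7 and 8. On 1 kPa alone it was 1.87 ± 0.77, and 1.19 without library 28. Col9a2, a FACIT chain of cartilage, was 3.75, 6.63 and 4.08 and 5.16, 12.2 and 7.89 on 1 kPa and 4.33, 3.93 and 1 and 12.9, 4.97 and 6.42 on 308 kPa for KDEL and SUN1L cells, and 11.2, 4.21 and 5.83 with Y27 and 5.95 and 1 with blebbistatin. Its difference was 0.92 ± 0.33 (1.01 without libraries 3, 7 and 8). On 308 kPa alone it was 1.18 ± 0.47, 1.08 without these libraries and 0.73 without library 32. At such low signals the differences depend on the added pseudocount of 1. With a pseudocount of 8 those over both rigidities were 1.13 for Col5a3 and 0.43 for Col9a2, and on 308 kPa that of Col9a2 was 0.52.

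Col9a3 was 144, 219 and 200 in KDEL and 214, 259 and 235 in SUN1L cells on 1 kPa, 135, 159 and 176 and 179, 220 and 213 on 308 kPa, 168, 323 and 219 with Y27 and 139 and 146 with blebbistatin. Its groups overlapped on 1 kPa and not on 308 kPa (log2 difference 0.37 ± 0.15, and 0.40 without libraries 3, 7 and 8). Col18a1, whose end fragment is known as endostatin, was 403, 348 and 278 in KDEL and 211, 211 and 319 in SUN1L cells on 1 kPa, 299, 270 and 277 and 166, 242 and 267 on 308 kPa, 270, 222 and 227 with Y27 and 355 and 274 with blebbistatin. Its difference of −0.42 ± 0.17 was −0.25 (adjusted p = 0.859) without libraries 3, 7 and 8. Col4a3 was 4.22, 6.64 and 5.62 in KDEL and 9.34, 10.6 and 8.83 in SUN1L cells on 1 kPa, 6.49, 2.57 and 9.44 and 6.17, 17.1 and 8.28 on 308 kPa, 7.36, 5.62 and 1.07 with Y27 and 1 and 10.4 with blebbistatin, a difference of 0.71 ± 0.31. It was 0.91 without libraries 3, 7 and 8, and 0.38 with a pseudocount of 8. Col19a1 was 1 of the 2 genes counted on 308 kPa, where it was listed at 1 in all KDEL libraries and at 3.01, 4.97 and 1 in SUN1L libraries. Elsewhere it was 1, 1 and 1.28 in KDEL and 1, 1 and 1.95 in SUN1L cells on 1 kPa, 1, 2.1 and 1 with Y27 and 1 and 1 with blebbistatin, so that 4.97 was its highest value. The difference on 308 kPa was 0.86 ± 0.35. It was 0.79 without libraries 3, 7 and 8, 0.50 without library 19 and 0.27 with a pseudocount of 8. The 7 genes counted over both rigidities became 4 without library 3, 3 without library 4, 4 without library 15 and 9 without libraries 3, 7 and 8. The 3 on 1 kPa became 1, 0 and 6 without libraries 3, 4 and 27 in turn, and 4 without libraries 3, 7 and 8. The 2 on 308 kPa became 0 without library 7 and 3 without all of libraries 3, 7 and 8.

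The comparison of 308 kPa with 1 kPa addressed the sensitivity to rigidity. In both cell types more collagen genes had a lower than a higher mean on the stiff gel. In KDEL cells 28 of 41 were lower and the median log2 difference was −0.27, beside −0.01 over all genes, of which 47.5% were higher. In SUN1L cells 29 were lower and the median was −0.21, again beside −0.01. The 2 comparisons had no library in common. No collagen gene and no other gene was called in limma in either (0%), and 4 collagen genes in KDEL cells and 3 in SUN1L cells had an unadjusted p under 0.05, all toward lower levels on 308 kPa (background of that direction 0.687% and 1.31%, and of the other 0.68% and 0.624%). Of the 41 genes, 11 were lower on 308 kPa within every run of library numbers in KDEL cells (background 10.6%) and 19 in SUN1L cells (16%), while 1 and 0 were higher in every run (10.1% and 13.1%).

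The chains of collagen VI were among these genes. Col6a2 (chr10:76595762-76623630, minus strand) was 11402, 13825 and 12856 in KDEL cells on 1 kPa and 5595, 9812 and 7952 on 308 kPa, and 8548, 10246 and 13435 and 4532, 6612 and 8816 in SUN1L cells. The KDEL groups did not overlap, whereas the SUN1L groups did. The log2 difference was −0.74 ± 0.27 in KDEL and −0.72 ± 0.27 in SUN1L cells, with an adjusted p that rounds to 1 in both. Without libraries 3, 7 and 8 it was −0.52 and −0.62, and in SUN1L cells it was −0.47 without library 7 alone. Col6a1 (chr10:76708792-76726168, minus strand) was 15991, 19034 and 18457 in KDEL cells on 1 kPa and 7920, 15416 and 11910 on 308 kPa, and 12340, 14776 and 18661 and 7074, 10727 and 12843 in SUN1L cells. Again the KDEL groups did not overlap. Its difference in KDEL cells was −0.65 ± 0.28, and −0.39 without library 8. Col6a3, the largest chain of collagen VI, was 14917, 21510 and 21133 and 4357, 20120 and 15464 in KDEL cells and 7979, 21571 and 24494 and 6660, 18801 and 15834 in SUN1L cells on 1 and 308 kPa, with the lowest value of each group it was part of in libraries 3, 7 and 8, and its difference in KDEL cells was −0.77 ± 0.61, and −0.10 without library 8 and the other 2 libraries that stood apart.

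Col27a1 and Col2a1, both fibrillar, had an unadjusted p under 0.05 in both cell types. Col27a1, a fibrillar collagen with a short helix, was 1322, 1804 and 1728 in KDEL cells on 1 kPa and 1044, 1278 and 918 on 308 kPa, and 2059, 1495 and 1473 and 1460, 1076 and 841 in SUN1L cells. With Y27 it was 1019, 1196 and 772, and with blebbistatin 1182 and 928. All stiff-gel libraries were below all soft-gel libraries of the same cells, with log2 differences of −0.58 ± 0.22 in KDEL and −0.59 ± 0.22 in SUN1L cells. The values without libraries 3, 7 and 8 were −0.57 and −0.64. Col2a1 was 15, 32.3 and 68.9 in KDEL cells on 1 kPa and 19.4, 8.94 and 12 on 308 kPa, and 42.2, 27.3 and 64.3 and 24.5, 14.9 and 9.48 in SUN1L cells. With Y27 it was 13.6, 6.31 and 1 and with blebbistatin 3.97 and 2.44. Its groups overlapped in KDEL cells and not in SUN1L cells, and the differences were −1.28 ± 0.57 and −1.41 ± 0.57 at signals under 70. They were −1.56 and −1.73 without libraries 3, 7 and 8, and the first was −0.74 without library 28.

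In KDEL cells, 4 collagen genes were lower on 308 kPa without overlap (Col11a1, Col27a1, Col6a1 and Col6a2, background 2.65%) and 1 was higher (Col23a1, 2.13%). In SUN1L cells 2 were lower (Col27a1 and Col2a1, 3.08%) and none higher (1.69%). The 4 genes counted in KDEL cells became 1 without library 8, 28 or 32, 0 without library 16 and 4 without libraries 3, 7 and 8. The 3 in SUN1L cells became 1 without library 19 or 27 and 5 without libraries 3, 7 and 8. The effect of rigidity was not shown to differ between KDEL and SUN1L cells for any collagen gene. In the interaction test of limma no collagen gene and no other gene was called (0%), and 0 of 41 had an unadjusted p under 0.05 (background 0.905%, with 0.399% higher and 0.506% lower). The median interaction of the 41 genes was 0.02. Among those above the median signal of all tested genes, the largest were 0.45 ± 0.41 for Col11a1 and −0.50 ± 0.69 for Col20a1. They were 0.34 and −0.31, and the median −0.07, without libraries 3, 7 and 8.

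**Figure D5:**
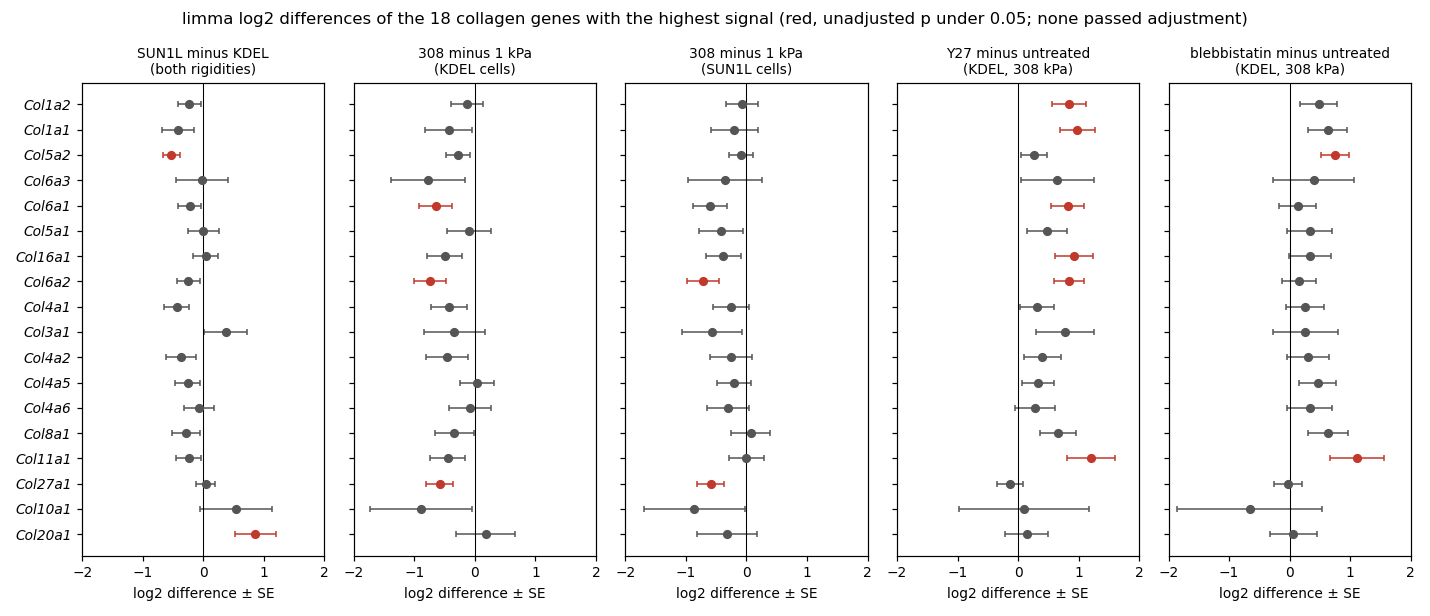
limma log2 differences ± SE of the 18 collagen genes with the highest signal in KDEL cells, for 5 comparisons, with red points for an unadjusted p under 0.05. In the Y27 panel 6 genes are red and all of them lie to the right of 0, and no point in any panel passed adjustment over all genes.

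With the ROCK inhibitor Y27, the fitted levels of Col1a2 and Col1a1 were 1.79-fold and 1.97-fold those of untreated KDEL cells on 308 kPa. The inhibitor comparisons share the same 3 untreated libraries, so that their values are not independent. No collagen gene and no other gene was called in limma with Y27 (0%). At an unadjusted p under 0.05 there were 9 of 41 collagen genes (background 5.8%), of which 7 were higher (background 3.49%) and 2 lower (2.31%), with an adjusted p from 0.793 to 0.827. The median log2 difference was 0.28, beside 0.01 over all genes, and it was 0.24 without library 8. Without overlap, 8 collagen genes were higher with Y27 (background 4.95%), namely Col1a1, Col1a2, Col4a4, Col6a1, Col6a2, Col8a1, Col11a1 and Col16a1, and 1 was lower (Col23a1, 3.62%). Within every run of library numbers 15 were higher (14%) and 4 lower (11.3%).

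The signal of Col1a1 was 49147, 44811 and 83218 in untreated KDEL cells on 308 kPa and 100927, 118122 and 117547 with Y27. All treated libraries were above all untreated ones, and in each run the treated library was the higher, by 1.04, 1.40 and 0.50 on the log2 scale. The difference was 0.98 ± 0.29 (adjusted p = 0.793). With blebbistatin Col1a1 was 100472 and 76431, which overlapped the untreated libraries. On 1 kPa it was 96743, 58894 and 79037 in KDEL and 41183, 47287 and 76132 in SUN1L cells, and in SUN1L cells on 308 kPa 32648, 38850 and 77604. These groups overlapped, and SUN1L minus KDEL was −0.42 ± 0.27 over both rigidities (adjusted p = 0.861), and −0.25 without libraries 3, 7 and 8.

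Col1a2 was 126782, 109725 and 130481 in untreated cells and 231471, 219388 and 204495 with Y27, again without overlap. The difference was 0.84 ± 0.28 (adjusted p = 0.803), and 0.87, 1.00 and 0.65 within the runs. With blebbistatin it was 203977 and 142878, both above the untreated libraries. On 1 kPa it was 162982, 116491 and 126153 in KDEL and 114983, 94005 and 128512 in SUN1L cells, and in SUN1L cells on 308 kPa 104142, 92136 and 125877. The lowest Y27 library was thus above every library of these 4 groups for Col1a2. Without library 8 the differences with Y27 were 0.87 for both collagen I genes.

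Col11a1 (chr3:114030540-114220718, plus strand), a minor fibrillar chain found inside fibrils, had the largest difference with Y27 among the genes above the median signal. It was 1598, 1395 and 1689 untreated, 5173, 2786 and 3169 with Y27 and 5650 and 2007 with blebbistatin. All libraries with an inhibitor were above the untreated ones. The difference with Y27 was 1.20 ± 0.40 (adjusted p = 0.803), 1.22 without library 8, and 1.69, 1.00 and 0.91 within the runs. In the other groups Col11a1 was 2808, 1796 and 1894 in KDEL and 974, 1673 and 2246 in SUN1L cells on 1 kPa and 1167, 1753 and 1801 in SUN1L cells on 308 kPa.

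Col6a1 and Col6a2 were also higher without overlap. With Y27 they were 17298, 25140 and 18382 and 11326, 17888 and 12286, with differences of 0.82 ± 0.27 and 0.84 ± 0.25. With blebbistatin they were 13115 and 11684 and 8747 and 8229, and overlapped the untreated libraries. Col6a3 was 11669, 23273 and 19313 with Y27 and 11689 and 18142 with blebbistatin and overlapped them in both. Its differences of 0.65 ± 0.60 and 0.40 ± 0.67 were −0.02 and −0.28 without library 8. Col16a1 was 5555, 12626 and 9630 untreated, 13810, 21363 and 15596 with Y27 and 11291 and 10854 with blebbistatin, and its difference with Y27 was 0.92 ± 0.31. It was 10937, 13525 and 12979 in KDEL and 9457, 13710 and 14080 in SUN1L cells on 1 kPa and 7068, 10379 and 11310 in SUN1L cells on 308 kPa, so that the highest of its values was a Y27 library. Without library 8 the Y27 differences were 0.56 for Col6a1, 0.62 for Col6a2 and 0.59 for Col16a1, and each stayed without overlap among the remaining libraries.

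Col8a1, a short-chain collagen, was 1880, 4462 and 3627 untreated, 4799, 5102 and 4910 with Y27 and 5124 and 4579 with blebbistatin, above the untreated libraries in both. It was 4469, 3771 and 3680 in KDEL and 2022, 3250 and 3348 in SUN1L cells on 1 kPa and 2152, 3684 and 3188 in SUN1L cells on 308 kPa, with the lowest 3 values in libraries 3, 7 and 8. The difference with Y27 missed an unadjusted p of 0.05. Col5a1, which pairs with Col5a2 in collagen V, was 21822, 11052 and 9185 untreated, 18958, 20848 and 14784 with Y27 and 18053 and 14840 with blebbistatin, and overlapped. It was 17660, 14037 and 10977 in KDEL and 22902, 13674 and 12098 in SUN1L cells on 1 kPa and 16645, 10004 and 9485 in SUN1L cells on 308 kPa. Library 8 held the highest value of the untreated cells.

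The other genes with an unadjusted p under 0.05 with Y27 were near the lowest value of the table. Col4a4 was 10.5, 8.81 and 13.6 untreated, 14.3, 21.7 and 20.4 with Y27 and 14.3 and 10.3 with blebbistatin, and 9.69, 9.47 and 18.5 in KDEL and 40.6, 14.9 and 7.64 in SUN1L cells on 1 kPa and 24.3, 7.25 and 18.7 in SUN1L cells on 308 kPa. Its difference with Y27 was 0.73 ± 0.27, and 0.71 without library 8. Col23a1, a transmembrane collagen, was 10.3, 7.48 and 6.41 untreated, 3.84, 4.37 and 4.3 with Y27 and 9.27 and 10.1 with blebbistatin, and 4.32, 4.43 and 2.04 in KDEL and 7.73, 3.29 and 11.7 in SUN1L cells on 1 kPa and 13.1, 10.4 and 3.09 in SUN1L cells on 308 kPa. The 3 Y27 values were below the untreated ones (−0.79 ± 0.21, adjusted p = 0.793). The difference was −0.62 without library 8 and −0.39 with a pseudocount of 8. Col22a1 was listed at 1 in all 5 libraries of the Y27 and blebbistatin groups and at 4.09, 3.93 and 1 in the untreated ones, 1.88, 2.21 and 2.04 in KDEL and 2.14, 2.14 and 1.95 in SUN1L cells on 1 kPa and 3.47, 4.97 and 1 in SUN1L cells on 308 kPa. With Y27 its difference was −0.88 ± 0.36, −0.65 without library 8 and −0.28 with a pseudocount of 8. The 9 genes counted with Y27 became 4 without library 24 and 8 without libraries 3, 7 and 8.

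With the myosin II inhibitor blebbistatin, Col5a2 was the abundant chain with the smallest p. It was 41291, 37008 and 51245 in untreated KDEL cells on 308 kPa and 69757 and 74718 with blebbistatin. Both treated libraries were above all untreated ones and above every other library of the 6 groups for this gene. The log2 difference was 0.75 ± 0.23 (with an adjusted value that rounds to 1), and 0.73 without libraries 3, 7 and 8. With Y27 Col5a2 was 58972, 55508 and 41194, which overlapped the untreated libraries (0.26 ± 0.21). The difference of Col5a2 with blebbistatin was 0.56 when library 34 was counted as a blebbistatin library. Col11a1 was higher by 1.11 ± 0.45 with blebbistatin, a value that was 1.13 without library 8, 0.37 without library 10 and 1.86 without library 22.

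No collagen gene and no other gene was called in limma with blebbistatin (0%), and 2 of 41 had an unadjusted p under 0.05, both higher (background 1.58%, against 1.46% lower). Within both runs 9 were higher (27.3%) and 5 lower (22.8%). Without overlap 5 collagen genes were higher (Col1a2, Col5a2, Col8a1, Col11a1 and Col12a1, background 7.2%) and 1 was lower (Col2a1, 5.85%). The median log2 difference was 0.15, beside 0.00 over all genes, and 0.01 without library 8. The 2 genes became 4 without library 8, 0 without library 10, 4 without library 12 and 1 without library 24, the last 2 being Y27 libraries that share the estimate of the spread.

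The genes that modify, process, bind and degrade collagen were counted in the same fits, 45 in all. None passed adjustment in any comparison or in the F test. With the run of library numbers as a block, Lox and Adamts2 passed the F test. With Y27, 12 had an unadjusted p under 0.05 toward higher levels (background 3.49%) and 1 toward lower levels (2.31%), and the median of the 45 was 0.25. Without library 8 these counts were 9 and 2 and the median 0.16. Of the 21 modifying enzymes and chaperones 8 were in the first count. Serpinh1, the collagen chaperone HSP47, was 16017, 14765 and 17446 untreated and 22820, 30557 and 20608 with Y27, without overlap (0.60 ± 0.17, adjusted p = 0.793). Lepre1, a prolyl 3-hydroxylase, was higher by 0.51 ± 0.14 on the log2 scale, and Adamts2, which removes the amino-terminal propeptide, by 0.75 ± 0.16. Adamts3, a protease of the same kind, was the exception toward lower levels (−1.55 ± 0.33). Without library 8 the differences were 0.60 for Serpinh1, 0.43 for Lepre1, 0.72 for Adamts2 and −1.67 for Adamts3. These genes were chosen after their values were seen.

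Lox, the crosslinking enzyme lysyl oxidase, was 1 of the 2 genes of these lists with the largest difference between SUN1L and KDEL cells. It was 54512, 36230 and 29957 in KDEL and 42162, 28097 and 17953 in SUN1L cells on 1 kPa and 52393, 37730 and 32287 and 46701, 28362 and 17472 on 308 kPa. Within each run the SUN1L library was the lower one on both gels, while the groups overlapped, and the difference was −0.49 ± 0.29 (adjusted p = 0.832), and −0.72 without libraries 3, 7 and 8 (adjusted p = 0.529). With Y27 Lox was 83907, 64203 and 53994 (0.73 ± 0.28) and with blebbistatin 90990 and 60875 (0.90 ± 0.32), in both above the untreated libraries. Without library 8 these differences were 0.92 and 1.09. The other gene, Leprel1, had a highest signal of 12.8. Between SUN1L and KDEL cells 1 of the 45 genes had an unadjusted p under 0.05 over both rigidities (background 6.8%). For 308 kPa against 1 kPa there were 0 in KDEL cells (1.37%) and 3 in SUN1L cells (1.93%), and with blebbistatin 3 (3.04%). These counts were 5, 1, 2 and 4 without libraries 3, 7 and 8, where the shares of all genes are not given.

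In the 3 libraries with low Mki67, collagen genes stood apart no more often than genes in general. Of the 41 genes, 5 were lower in all 3 of them than in any of the other 14 libraries of the 6 groups (background 13.1%), and 3 were higher (8.9%). The lower ones were Col4a1, Col4a2, Col6a3, Col8a1 and Col16a1, and the higher ones Col11a2, Col14a1 and Col20a1. Col6a3 was 4357 to 7979 in these libraries and 11669 to 24494 in the others. Col11a2, a minor fibrillar chain of cartilage, was 1043 to 1915 against 206 to 487. These libraries were set apart by Mki67 and Vim and include both cell types and both rigidities.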

How the data were processed

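NIH 3T3 polyA RNA was sequenced as 50-bp paired ends. Per the study's methods, reads were aligned with TopHat 2.0 to mm9, filtered in AvadisNGS with duplicate reads removed, and scaled by TMM. The authors deposited the result as normalized signal per gene on a linear scale with a lowest value of 1. What the removal of duplicates did to the levels of abundant genes was not tested. The gene positions in the table are those of GRCm38. Depth in reads is not given and whole reads could not be recovered from the steps between low values, so no count test was run. The number of libraries limits the precision.

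The members and the gene lists were chosen with earlier results of these data known. A gene was tested where 3 or more of the 18 libraries exceeded the lowest value. Tests were run on log2(signal + 1), which understates differences of low genes, with limma 3.58.1 (R 4.3.3, trend) and Benjamini-Hochberg adjustment over all 16021 genes. A gene was called at an adjusted p under 0.05 and at least 2-fold. SUN1L and rigidity were fitted over the 12 libraries without inhibitor, the inhibitors over the 8 KDEL libraries on 308 kPa, and the F test over 17. The study's methods call the replicates of a condition biological, 3 each, while the labels do not say which cultures the libraries came from. Length is the union of exons. Named genes were the 10 members with the highest signal, those with an unadjusted p under 0.05 in any comparison, and the largest differences among members above the median signal of all tested genes. Chain ratios were tested by exact permutation. The limma test was checked on simulated data, with changes set in genes above the median level and noise independent between libraries. At an adjusted p under 0.05 it recovered 65% of 2-fold changes for SUN1L on 1 kPa, 45% for Y27 and 42% for blebbistatin. Of 4-fold changes it recovered 93%, 86% and 83%. These rates hold for that setting only, since they depend on the number of genes changed, and libraries of the same run deviated together in the data. Many 2-fold differences could still be missed. Alternatives were the pseudocount, the low-value filter, quantile scaling, the run of library numbers as a block, library 34 placed in either inhibitor group and each library left out. The choice of leaving out libraries 3, 7 and 8 together was made after the data were seen. Counts under alternatives were not set against the share of all genes, except for the adjusted F test with the block.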

Additional observations from a re-analysis of the deposited data

Results flagged for a closer look

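Library 34 entered no comparison because its labels name an empty vector and disagree on the inhibitor. Its collagen share and some of its collagen genes were above all 3 untreated KDEL libraries on 308 kPa. Collagen genes held 1.24% of its signal, against 0.934% to 1.03% in the untreated libraries. Col1a2 was 171302 (untreated 109725 to 130481), Col1a1 was 105062 (44811 to 83218), Col6a3 was 20291 (4357 to 20120) and Col16a1 was 13759 (5555 to 12626). These were 4 of the 10 collagen genes with the highest signal. Of the 41 tested collagen genes 10 were above the untreated range. This is near the share of all tested genes (21.5%), so that the count does not set collagen genes apart. With 1 library there is no replicate check. Its values were matched to it by the column heading alone, since no column carries number 34 and the column used carries another number.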

How the results depend on the processing

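Of 1464 values recomputed under alternatives, 1398 stayed on their side of the threshold and within the spread set for them, 64 moved and 2 passed the threshold. Single genes entered this tally only where the unadjusted p was under 0.05 in the reported fit. The 2 are therefore Col6a2 and Col1a2 in the F test with the block given below, and Col4a5, which also passed there, was not in the tally as a single gene. The sign turned in 5 of the 1464 values, all medians near 0. That of SUN1L on 1 kPa (0.05) was −0.02 over genes with a mean signal of at least 10 and −0.03 without library 4, and that of the interaction (0.02) was −0.04 without library 3, −0.06 without library 8 and −0.07 without libraries 3, 7 and 8. The labels number no replicates, so the replicate block is the run of library numbers. With it, 3 collagen genes passed the F test at an adjusted p of 0.05, namely Col4a5 (0.0262), Col6a2 (0.0461) and Col1a2 (0.0464), among 229 genes in all against 29 without the block. Libraries of the same run deviated together in 37 of 40 pairs (correlation over 0.1, median 0.22), against a median of −0.11 over 80 pairs of different runs. Deviations from a group mean cancel within the group, so that these medians are not independent of each other. The block changed no other call of a collagen gene. The unadjusted counts with the block were 7, 6 and 12 for SUN1L on 1 kPa, on 308 kPa and over both, 8 and 9 for rigidity in KDEL and SUN1L cells, 11 with Y27, 5 with blebbistatin and 22 in the F test. The shares of all genes in these fits are not given, so that the counts do not set collagen genes apart from other genes.

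The median log2 difference of the collagen genes for SUN1L on 308 kPa was 0.00 both without the first run and without libraries 3, 7 and 8. For rigidity in KDEL cells it was −0.22 with a pseudocount of 8 and without the first run, −0.34 over genes with a mean signal of at least 10, and −0.17 without libraries 3, 7 and 8. Without library 4 it was −0.20. The interaction median was 0.12 without library 7, the Y27 median 0.41 over genes with a mean of at least 10, and the blebbistatin median 0.00 without the first run and 0.01 without libraries 3, 7 and 8. When each library was dropped in turn, the medians were −0.03 to 0.14 for SUN1L on 1 kPa, 0.01 to 0.17 on 308 kPa and 0.05 to 0.16 over both. For rigidity they were −0.27 to −0.17 in KDEL and −0.22 to −0.16 in SUN1L cells, for the interaction −0.06 to 0.13, for Y27 0.21 to 0.40 and for blebbistatin 0.01 to 0.33. The log2 chain ratios ran from −0.32 to −0.07, −0.11 to −0.04 and 0.02 to 0.06. Without Sun1 and the 10 genes of highest signal, Col1a2 among them, in the total and the sum, the collagen share was 0.805%, 0.636%, 0.693%, 0.559%, 0.942% and 0.848% in the groups as ordered in the report. These shares are lower by construction, since the collagen gene of highest signal was taken out of the sum. The cause of the other shifts was not tested.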
